A study of Mus musculus with 17 samples.

Results

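Wildtype implants and visceral fat are compared here as 4 RNA-sequencing libraries against 5, of the 16 libraries in the table and the 17 samples in the labels. The implants are the libraries MWM1, MWM2, MWF1 and MWF2, and the visceral fat libraries are EVM1, EVM2, EVFY1, EVFY2 and EVFN2. They were taken by the codes in the labels. The library labelled EVFN1 was left out of the visceral side because its profile is that of an implant. All 54658 genes of the table were considered, and the 17871 that reached at least 1 CPM (reads of a gene per 1000000 reads of the library) in at least 2 of 14 libraries were tested.

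The study, titled for leptin and complement factor D in osteoarthritis, placed mouse embryonic fibroblasts (MEF) under the skin over the sternum of hosts named LD, a code that the labels do not spell out. Hosts were 3 to 5 weeks old, and the injected cells grew into tissue resembling fat. In MWM (male) and MWF (female) the cells came from wildtype (WT) pups, and the knee was destabilized by surgery on the medial meniscus at 16 weeks. EVM is endogenous visceral fat with the same surgery, EVFN is endogenous visceral fat without surgery, and EVFY is visceral by its genotype label with the last letter not spelled out. All animals ended at 28 weeks. The design text calls the hosts male although 2 implant codes are described as female. The genotype and the sex of the animals that gave the endogenous fat are not in the sources used here, nor is whether a library pools animals.

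White fat is built of adipocytes, which store triglyceride in a droplet coated by perilipins and secrete hormones such as leptin, adiponectin and adipsin. Around them lie vessels, fibroblasts, macrophages and nerves, and a visceral pad is also covered by mesothelium, the epithelium that lines the abdominal cavity. Depots keep a positional identity in developmental transcription factors such as the Hox genes, and embryonic fibroblasts can form adipocytes at a site that no endogenous pad occupies. Lists of marker genes for these cells and for other organs were therefore read beside the adipocyte genes.

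The 9 libraries held 16444965 (MWF2) to 25805502 (EVM2) reads. The labels name the tissue as ganglia and the cell type as a sensory ganglion. Adiponectin (Adipoq), a hormone of adipocytes, stood at 876 to 2175 CPM in the implants and 1503 to 3156 CPM in visceral fat, while Scn10a, a sodium channel of pain-sensing neurons, had no read in 4 of the 5 visceral libraries. Across genes, EVFN1 correlated at r = 0.961 to 0.984 with implants of knockout donors, at 0.880 to 0.938 with the WT implants and at 0.902 to 0.927 with the 5 visceral libraries, over genes that are not independent replicates. Ddx3y, a gene of the Y chromosome, was at 13.1 and 17.3 CPM and Xist, a transcript of the inactive X chromosome, at 494 and 466 CPM in the 2 libraries labelled MWM. EVM1 and EVM2 had Ddx3y at 90.7 and 95.5 CPM with Xist at 0.223 and 0.194 CPM, and the other 5 libraries had Xist at 273 to 766 CPM with Ddx3y at no more than 0.266 CPM. Both libraries labelled MWM thus carried transcripts of both kinds, and their part in any result was not tested.

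Between the tissues, 4011 of 17871 genes (22.4%) passed an adjusted p of 0.05 by limma, 2849 higher in the implants (15.9%) and 1162 lower (6.5%). Of the called genes 71.0% were higher, against 56.2% when libraries were scaled by the median of ratios (2429 higher and 1891 lower), a scaling that moved the median difference of all genes from 0.11 to 0.03 on the log2 scale, and 60.4% by edgeR with TMM scaling. Levels of the 4 implants lay wholly above those of the 5 visceral libraries for 1673 genes (9.36% of those tested) and wholly below for 897 (5.02%). Leaving out MWM1 gave 1708 calls and leaving out MWM2 gave 2105. MKM1, labelled as a knockout implant, was also left out of the fit because it was judged to go against its label. The values behind that choice are not given here. With EVFN1 and MKM1 put back in as labelled, 1735 genes passed, 1443 higher and 292 lower. Of these, 1697 were among the 4011 in the same direction. The labels do not say whether a group's libraries are separate animals, and the p-values therefore reflect only how far these libraries spread, which may be technical.

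The higher and the lower genes differed in how evenly the 4 implants carried them. Among the genes that fell, 964 of 1162 (83.0%) varied by no more than 2-fold over the 4 implants, against 68.8% of all tested genes, and 15 varied by more than 4-fold (9.76% of all tested genes did). Among the genes that rose, 1003 of 2849 (35.2%) varied by more than 4-fold over the implants. Of the 725 genes that rose by more than 4-fold, 493 did so. Genes that fell by more than 4-fold numbered 49. In the plot of difference against range, most white adipocyte genes lie left of 0. Their median range over the implants was 2.22-fold, and 10 of 23 stayed within 2-fold, a share under the 68.8% of all tested genes. Muscle, lymphocyte and liver genes each form a group of their own to the right.

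**Figure D1:**
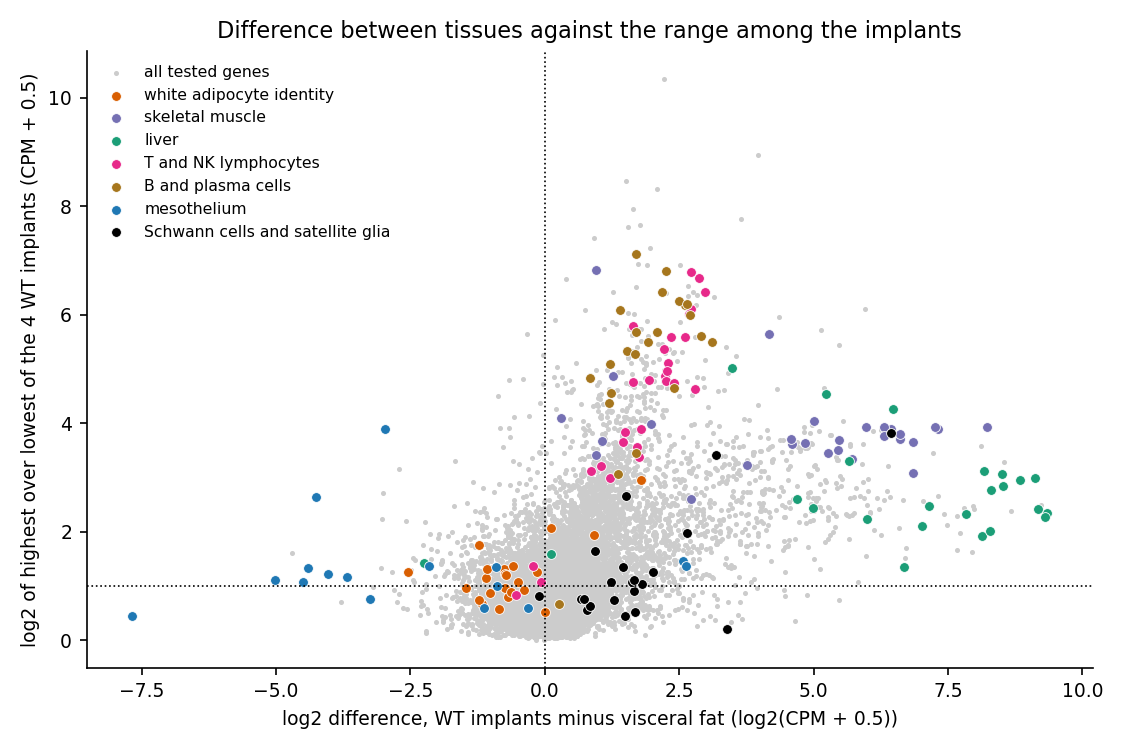
Each point is a gene: the x axis is the log2 difference between WT implants and visceral fat on the log2(CPM + 0.5) scale, and the y axis is the log2 ratio of the highest to the lowest of the 4 implants (CPM + 0.5). Dotted lines mark no difference and a 2-fold range. Skeletal muscle (median log2 difference 5.46) and liver genes (7.49) lie far to the right with wide ranges, and most white adipocyte genes (median -0.73) lie left of 0.

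Adipocyte genes proper were lower in the implants. Of 23 tested members of the white adipocyte identity list, 15 fell and 2 rose, with a median log2 difference of -0.73 (all genes 0.11). Of all genes tested 6.5% fell and 15.9% rose. In bulk tissue, fewer adipocytes and less RNA of a gene per adipocyte cannot be told apart. The genes that fell included the hormone genes Adipoq and Retn, the droplet proteins Plin4 and Cidec, the lipases Lipe and Pnpla2, the fatty acid carriers Fabp4 and Cd36, and the transcription factors Pparg and Cebpa. Adipoq overlapped between the sides. The list's median log2 difference was -0.34 within the male groups and -1.08 within the female groups, as described below. Summed over the list, the implants had 38783 and 46052 CPM in MWM and 22800.0 and 33309 CPM in MWF and visceral fat 47367 and 63851 CPM in EVM, 61140.0 and 48069 CPM in EVFY and 70058 CPM in EVFN2, so the sums did not overlap. Plin1, which coats the lipid droplet, did not pass at 1584 and 1805 CPM in MWM and 853 and 1410.3 CPM in MWF against 1835 and 2720.3 CPM in EVM, 1770.4 and 1601 CPM in EVFY and 1879.5 CPM in EVFN2 (log2 difference -0.49, adjusted p = 0.106). With all libraries as labelled the list had 0 rises and 1 fall, and in a fit of 2 groups of 4 and 5 libraries 1 and 4.

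Resistin (Retn, chromosome 8, 3655770 to 3660110, plus strand), a hormone secreted by mouse adipocytes, was at 119.9 and 152 CPM in MWM and 98.4 and 237 CPM in MWF and at 373 and 1016 CPM in EVM, 1104 and 709 CPM in EVFY and 1097 CPM in EVFN2. All 4 implants lay below all 5 visceral libraries (log2 difference -2.55, SE 0.36, adjusted p = 0.00219). Adipogenin (Adig), a small protein of the lipid droplet, was at 47.6 and 48.2 CPM in MWM and 35.8 and 57.2 CPM in MWF against 69.4 and 98.0 CPM in EVM, 103 and 106 CPM in EVFY and 137 CPM in EVFN2, again without overlap (log2 difference -1.17, SE 0.18, adjusted p = 0.00330). Klb, the co-receptor for the hormone FGF21, was at 19.0 to 32.4 CPM against 48.5 to 74.4 CPM (log2 difference -1.22, SE 0.21, adjusted p = 0.00499). The lipase gene Pnpla2, which opens the breakdown of triglyceride, overlapped between the sides at 1145 to 2095 CPM against 1866 to 4373 CPM (log2 difference -1.02, SE 0.18, adjusted p = 0.00589). Cidea, a droplet protein abundant in brown fat, rose from 0.955 to 2.14 CPM to 1.59 to 15.6 CPM (log2 difference 1.79, SE 0.44, adjusted p = 0.0219), but MWF1 lay within the visceral range.

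Adipsin, or complement factor D (Cfd, chromosome 10, 79890853 to 79892655, plus strand), is a protease that adipocytes secrete and that starts the alternative complement pathway. It was lower in every implant, at 1391 and 2210.2 CPM in MWM and 1223 and 1416 CPM in MWF in the implants and at 5788 and 12351 CPM in EVM, 10903 and 7976 CPM in EVFY and 12313 CPM in EVFN2 in visceral fat. The highest implant stayed below the lowest visceral library (log2 difference -2.70, SE 0.28, adjusted p = 0.000650). The library labelled EVFN1 had 81.8 CPM, and with it in the visceral group the log2 difference was -1.50 with an adjusted p of 0.531. Within the male groups the difference was -2.27 (adjusted p = 0.0161), within the female groups -3.02 (adjusted p = 0.00145), and the 2 did not differ by the test of the difference (adjusted p = 0.473). The bases in front of its start are shown because this gene is in the title of the study, on GRCm38.p6 (the build mm10) from RefSeq, plus strand, chr10:79890703-79890852, with no match for TTNNGNAA (a form bound by C/EBP factors) on either strand.
Cfd: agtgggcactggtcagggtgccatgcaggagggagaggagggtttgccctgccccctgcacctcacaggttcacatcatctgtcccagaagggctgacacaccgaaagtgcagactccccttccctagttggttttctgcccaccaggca
That form occurs in 22.7% of 32851 promoter windows of 150 bases, and the missing match says only that these letters are not in this window. Retn and Agt were searched in the same way and had no match either.

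Leptin (Lep, chromosome 6, 29060220 to 29073877, plus strand), the hormone that reports fat stores to the brain, did not pass between the tissues. It was at 1888 and 2675 CPM in MWM and 806 and 1019 CPM in MWF and at 1336 and 1462 CPM in EVM, 957 and 737 CPM in EVFY and 1065 CPM in EVFN2, with MWF inside the visceral range and MWM above it (log2 difference 0.41, SE 0.24, adjusted p = 0.246). The leptin receptor Lepr rose, at 18.7 and 14.3 CPM in MWM and 22.5 and 32.4 CPM in MWF against 5.69 and 3.68 CPM in EVM, 15.4 and 38.0 CPM in EVFY and 11.1 CPM in EVFN2, with EVFY2 above every implant (log2 difference 0.92, SE 0.27, adjusted p = 0.0390). Of the 23 adipokines tested, 3 rose and 4 fell (median -0.06). Angiotensinogen (Agt), the precursor of angiotensin, was at 76.0 to 132 CPM against 197 to 531 CPM without overlap (log2 difference -1.72, SE 0.22, adjusted p = 0.00138). Lcn2, which binds bacterial iron carriers, rose (log2 difference 3.08, SE 0.73, adjusted p = 0.0195) with EVM1 at 133 CPM above every implant and the other 4 visceral libraries at 0.804 to 7.17 CPM.

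**Figure D2:**
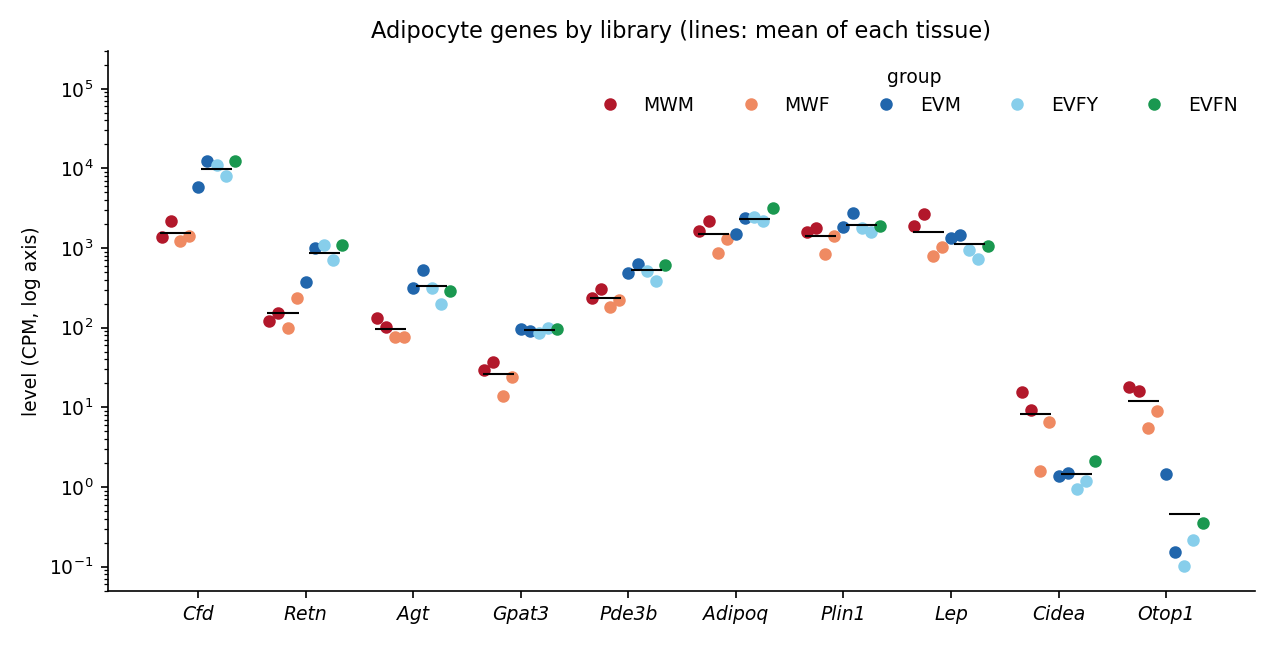
Levels of 10 adipocyte genes in CPM (log axis) in the 4 WT implants (left of each gene) and 5 visceral libraries (right); points are libraries coloured by group and lines are the mean of each tissue. Cfd, Retn, Agt, Gpat3 and Pde3b do not overlap between the tissues, Adipoq, Plin1 and Lep do, and all Otop1 values of the implants lie above those of visceral fat.

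Genes of lipid handling moved in smaller numbers. Of 23 genes of fatty acid uptake and triglyceride assembly, 5 fell and 2 rose (median -0.12). Gpat3, an enzyme of the first step of triglyceride assembly, was at 29.2 and 37.2 CPM in MWM and 13.8 and 24.1 CPM in MWF against 97.6 and 91.9 CPM in EVM, 85.7 and 98.3 CPM in EVFY and 96.7 CPM in EVFN2, with no overlap (log2 difference -1.92, SE 0.30, adjusted p = 0.00327). Dgat1, which adds the last fatty acid, was at 84.2 to 154 CPM against 182 to 232 CPM (log2 difference -0.68, SE 0.15, adjusted p = 0.0130). Of 20 genes of lipolysis and adrenergic signalling, 7 fell and 1 rose (median -0.28). Pde3b, the phosphodiesterase through which insulin restrains lipolysis, was at 235 and 302 CPM in MWM and 184 and 222 CPM in MWF against 489.7 and 638 CPM in EVM, 512 and 391 CPM in EVFY and 609 CPM in EVFN2 (log2 difference -1.20, SE 0.16, adjusted p = 0.00173). G0s2, an inhibitor of the lipase that Pnpla2 encodes, fell (log2 difference -1.24, SE 0.30, adjusted p = 0.0200), and so did the fatty acid receptor Ffar4 (log2 difference -1.16, SE 0.26, adjusted p = 0.0158). The sides did not overlap for either.

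Fatty acid synthesis genes did not move as a group when counted: of 22 genes of de novo lipogenesis 3 rose and 1 fell (median -0.02). The list's sums, which weigh abundant genes most, were 12687 and 9801 CPM in MWM and 5121 and 11881 CPM in MWF. In visceral fat they were 24199 and 32737 CPM in EVM, 39828 and 6567 CPM in EVFY and 22858 CPM in EVFN2. Only EVFY2 lay in the range of the implants. G6pdx, which supplies NADPH, was at 150.3 to 201 CPM against 220.4 to 339 CPM (log2 difference -0.75, SE 0.13, adjusted p = 0.00552), and the elongase Elovl5 was at 101 to 258 CPM against 68.0 to 104 CPM (log2 difference 1.01, SE 0.20, adjusted p = 0.0106). Of 21 genes of insulin signalling and glucose use, 7 fell and 2 rose (median -0.29). Genes of the insulin receptor substrates fell: Irs3 was at 28.2 to 32.5 CPM against 51.8 to 101 CPM (log2 difference -1.33, SE 0.21, adjusted p = 0.00407), and Irs2 at 103 to 141 CPM against 179 to 333 CPM (log2 difference -1.07, SE 0.22, adjusted p = 0.0115). Among 22 adipogenic transcription factors 3 fell and 2 rose. The early B-cell factors Ebf1 (-0.61, adjusted p = 0.0240) and Ebf2 (-1.08, adjusted p = 0.00584) and Nfia (-0.71, adjusted p = 0.00573) fell by limma, and none of the 3 overlapped between the sides. Of 28 genes of the respiratory chain 2 rose, Cycs and Cox5a, with a median of 0.22.

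Adipocyte genes can be set against one another by scaling each library so that its white adipocyte genes have the same level, a scaling chosen after seeing the data. It shifts all genes nearly alike, raising their median by 0.62, to 0.73, and all tested genes then had 10569 rises and 177 falls. Signs and counts under it are set by that shift, so only values relative to 0.73 can be read. Over the 9 adipocyte lists together, which include the genes used for the scaling, 23 of 197 genes rose and 42 fell on deposited CPM. After it 10 fell. All 10 were also among the 42, and they included Retn, Adig, Klb, Cfd, Agt, Gpat3, Pck1, Pde3b and Irs3. Cfd was then lower by a log2 difference of -2.02. The medians of the adipokine, lipogenesis, uptake, lipolysis, insulin and transcription factor lists went from below 0 to between 0.38 and 0.66, still under the median of all genes. In the same libraries the muscle lists held 0.539% to 7.08% of the reads in the implants and 0.0187% to 0.144% in visceral fat, and the other organ lists 0.580% to 1.87% and 0.252% to 0.485%. The share that these transcripts take from adipocyte genes was not tested.

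Of 18 thermogenic genes 15 were tested, and 6 rose and none fell (median 0.94). Among all tested genes 15.9% rose. Genes as low in visceral fat as Ucp1 could pass the filter only through implants or other libraries, so the share is partly set by the filter. Several thermogenic genes had the order of implants seen in muscle or liver genes. Otop1, a proton channel of brown and beige adipocytes, was at 18.0 and 16.1 CPM in MWM and 5.53 and 8.94 CPM in MWF against 1.45 and 0.155 CPM in EVM, 0.101 and 0.219 CPM in EVFY and 0.356 CPM in EVFN2 without overlap (log2 difference 3.74, SE 0.34, adjusted p = 0.000525). Dio2, which activates thyroid hormone, was at 6.95 and 3.56 CPM in MWM and 4.04 and 19.7 CPM in MWF against 0.781 and 1.82 CPM in EVM, 0 and 0.548 CPM in EVFY and 0.356 CPM in EVFN2 (log2 difference 2.83, SE 0.49, adjusted p = 0.00579). The uncoupling protein gene Ucp1 was low throughout, at 1.93 and 0.226 CPM in MWM and 0.903 and 2.74 CPM in MWF against 0 to 0.178 CPM (log2 difference 1.56, SE 0.44, adjusted p = 0.0353). Cox8b, a subunit of cytochrome oxidase in heart, muscle and brown fat, was at 31.4 and 37.5 CPM in MWM and 56.3 and 13.7 CPM in MWF and at 1.86 to 4.32 CPM in visceral fat (log2 difference 3.43, SE 0.47, adjusted p = 0.00197). It was highest in MWF1 and lowest in MWF2, as were the sums of the muscle list, and Cox7a1 and, in the triglyceride list, Fitm1 had the same order. Slc27a2, Pklr and Gys2, which are also liver genes, were highest in MWM1 and lowest in MWF1, as the liver list was, and Cidea had that order too. How much of these genes comes from adipocytes was not tested.

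**Figure D3:**
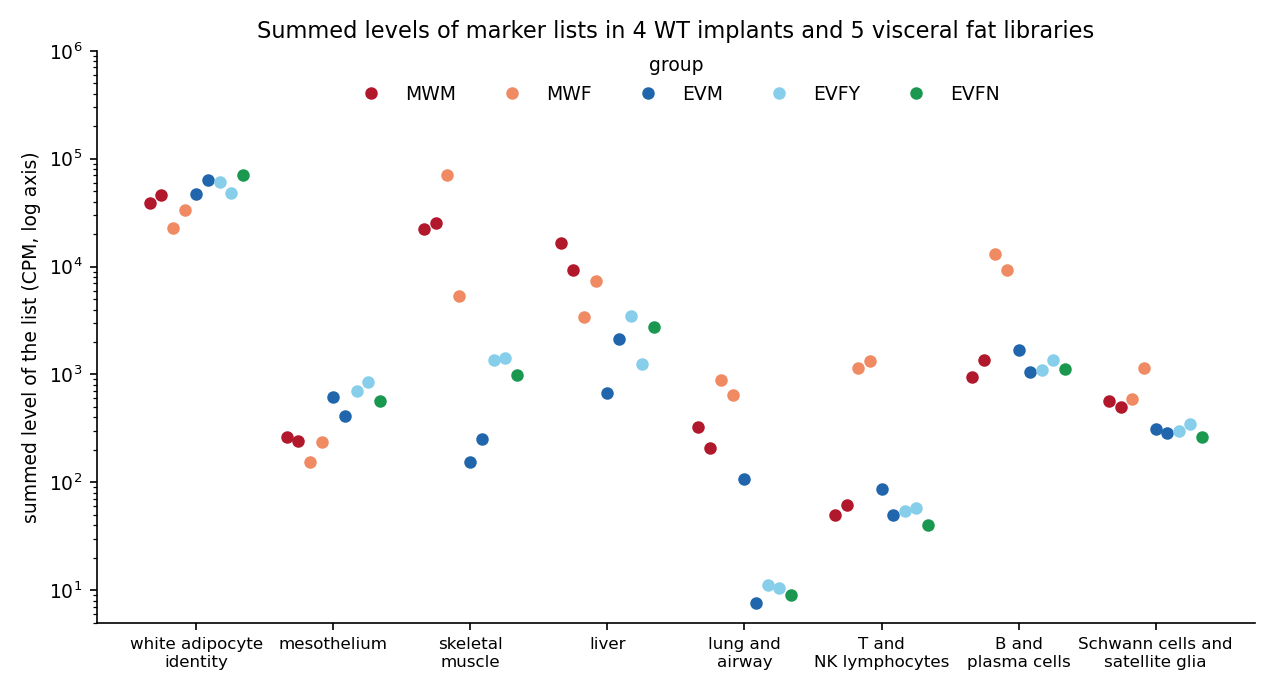
Summed CPM (log axis) of 8 marker lists in each of the 9 libraries, coloured by group. White adipocyte sums are 22800.0 to 46052 CPM in implants and 47367 to 70058 CPM in visceral fat, skeletal muscle sums are highest in MWF1 and lowest among implants in MWF2, lymphocyte sums are raised in the 2 MWF libraries, and lung sums are highest there too.

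Mesothelial genes had the largest share of falls among the 40 lists. Of 16 tested, 13 fell and 1, the keratin gene Krt18, rose (median -3.11, and -2.48 under the scaling to adipocyte genes, with 10 falls). Upk3b (uroplakin 3b, chromosome 5, 136038496 to 136046487, plus strand), a membrane protein that marks mesothelium, was at 0.0940 and 0.226 CPM in MWM and 0.266 and 0.0608 CPM in MWF against 61.4 and 108 CPM in EVM, 191 and 201 CPM in EVFY and 148 CPM in EVFN2 (log2 difference -7.67, SE 0.21, adjusted p = 1.04e-06). With EVFN1 at 0.0580 CPM in the visceral group its adjusted p was 0.0437. Its relative Upk1b was at 0 to 0.584 CPM against 12.6 to 33.2 CPM (log2 difference -5.01, SE 0.25, adjusted p = 3.43e-05). The transcription factor Wt1 was at 1.32 and 1.52 CPM in MWM and 2.07 and 3.34 CPM in MWF against 20.2 and 36.3 CPM in EVM, 83.9 and 118 CPM in EVFY and 60.4 CPM in EVFN2 (log2 difference -4.49, SE 0.25, adjusted p = 6.50e-05), and Lrrn4, a further mesothelial marker, at 0.611 to 2.31 CPM against 26.5 to 50.3 CPM (log2 difference -4.41, SE 0.26, adjusted p = 7.97e-05). No implant reached the lowest visceral library in these 4 genes. Falls of the largest size across all genes were mostly of the same kind: of the 10 named by size, Upk3b, Upk1b, Wt1, Lrrn4, Muc16, Bnc1, Rspo1 and Lrp2 are members of the list, and Pkhd1l1 (-4.71) and Wnt2b (-3.78) are not. EVM1 alone carried Lrp2, an endocytic receptor, at 139 CPM, with 7.67 to 18.0 CPM in the other 4.

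Other stromal lists changed less. Of 22 endothelial genes 6 fell and none rose (median -0.50), among them the receptor genes Tek, at 40.2 to 58.6 CPM against 61.1 to 97.7 CPM (log2 difference -0.84, SE 0.13, adjusted p = 0.00295), and Kdr, at 76.3 to 131 CPM against 166 to 288 CPM (log2 difference -1.17, SE 0.27, adjusted p = 0.0170). Under the scaling to adipocyte genes the endothelial median was 0.18 (all genes 0.73). Of 22 progenitor and fibroblast genes 3 rose and 3 fell. Fmo2, a monooxygenase, was at 49.6 and 43.5 CPM in MWM and 40.6 and 39.6 CPM in MWF against 117 and 87.2 CPM in EVM, 95.5 and 134 CPM in EVFY and 93.3 CPM in EVFN2 with no overlap (log2 difference -1.23, SE 0.13, adjusted p = 0.000712), and Dpt, a matrix protein of fibroblasts, rose (log2 difference 1.00, SE 0.17, adjusted p = 0.00457). Of 26 collagens and matrix enzymes the protease gene Mmp3 alone passed, at 37.3 to 51.7 CPM against 1.40 to 45.7 CPM (log2 difference 2.31, SE 0.42, adjusted p = 0.00696). Of 25 macrophage genes 5 fell, including the scavenger receptor Cd163, at 21.9 to 51.7 CPM against 69.0 to 179 CPM (log2 difference -1.86, SE 0.32, adjusted p = 0.00538), and Siglec1 (log2 difference -1.19, SE 0.18, adjusted p = 0.00279), and 3 rose, including the integrin Itgax (log2 difference 1.41, SE 0.25, adjusted p = 0.00647), which was at 110.4 and 64.5 CPM in EVM and at 5.93 to 7.84 CPM in the other visceral libraries. The share that rose is below the 15.9% of all genes. By limma 0 rose in the fit of 2 groups and 0 with all libraries as labelled, also at an unadjusted p under 0.05, while 5 and 4 fell, and edgeR called 3 higher and 4 lower. In the male groups 3 fell and none rose (median -0.56), and the difference from the female groups passed for 3.

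Some positional genes differed between the tissues. Of 33 tested Hox genes 9 fell and 1 rose (median -0.76), and 23 did not pass. Within the male groups 4 rose and 4 fell. Hoxc6 was at 20.2 and 21.6 CPM in MWM and 14.9 and 17.2 CPM in MWF against 28.9 and 37.6 CPM in EVM, 47.4 and 46.6 CPM in EVFY and 40.6 CPM in EVFN2 (log2 difference -1.10, SE 0.12, adjusted p = 0.000699), and Hoxa7 at 8.87 to 12.4 CPM against 21.9 to 34.7 CPM (log2 difference -1.49, SE 0.18, adjusted p = 0.00111). Neither overlapped. Hoxd13, a gene of distal structures such as digits and the genital tubercle, rose, at 1.41 to 4.38 CPM against 0 reads in all 5 visceral libraries, at least 89.0-fold higher against 3 reads over that side (adjusted p = 0.000821).

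Of 26 other patterning factors 9 rose and 4 fell, and 13 did not pass. Tbx15 (chromosome 3, 99240381 to 99354259, plus strand), a T-box factor known for high levels in subcutaneous fat and muscle, was at 53.1 and 75.2 CPM in MWM and 57.3 and 20.2 CPM in MWF against 0.112 and 0.310 CPM in EVM, 0.553 and 0.439 CPM in EVFY and 0.654 CPM in EVFN2 (log2 difference 5.66, SE 0.35, adjusted p = 7.97e-05). It was lowest in MWF2, the implant with the smallest muscle sum, but highest in MWM2 and not in MWF1, which had the largest muscle sum. Shox2, another factor of subcutaneous fat, was at 13.3 and 13.3 CPM in MWM and 7.07 and 9.85 CPM in MWF against 0.391 to 2.38 CPM (log2 difference 2.49, SE 0.19, adjusted p = 0.000227). Gata6, expressed in mesothelium and visceral fat, was even at 11.0 to 12.1 CPM in the implants against 41.7 and 38.0 CPM in EVM, 72.3 and 86.4 CPM in EVFY and 55.0 CPM in EVFN2 (log2 difference -2.20, SE 0.09, adjusted p = 1.09e-05), and Tcf21, a factor of visceral progenitors, fell with it (log2 difference -2.11, SE 0.39, adjusted p = 0.00724). All 4 implants lay apart from all 5 visceral libraries for Tbx15, Shox2 and Gata6.

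**Figure D4:**
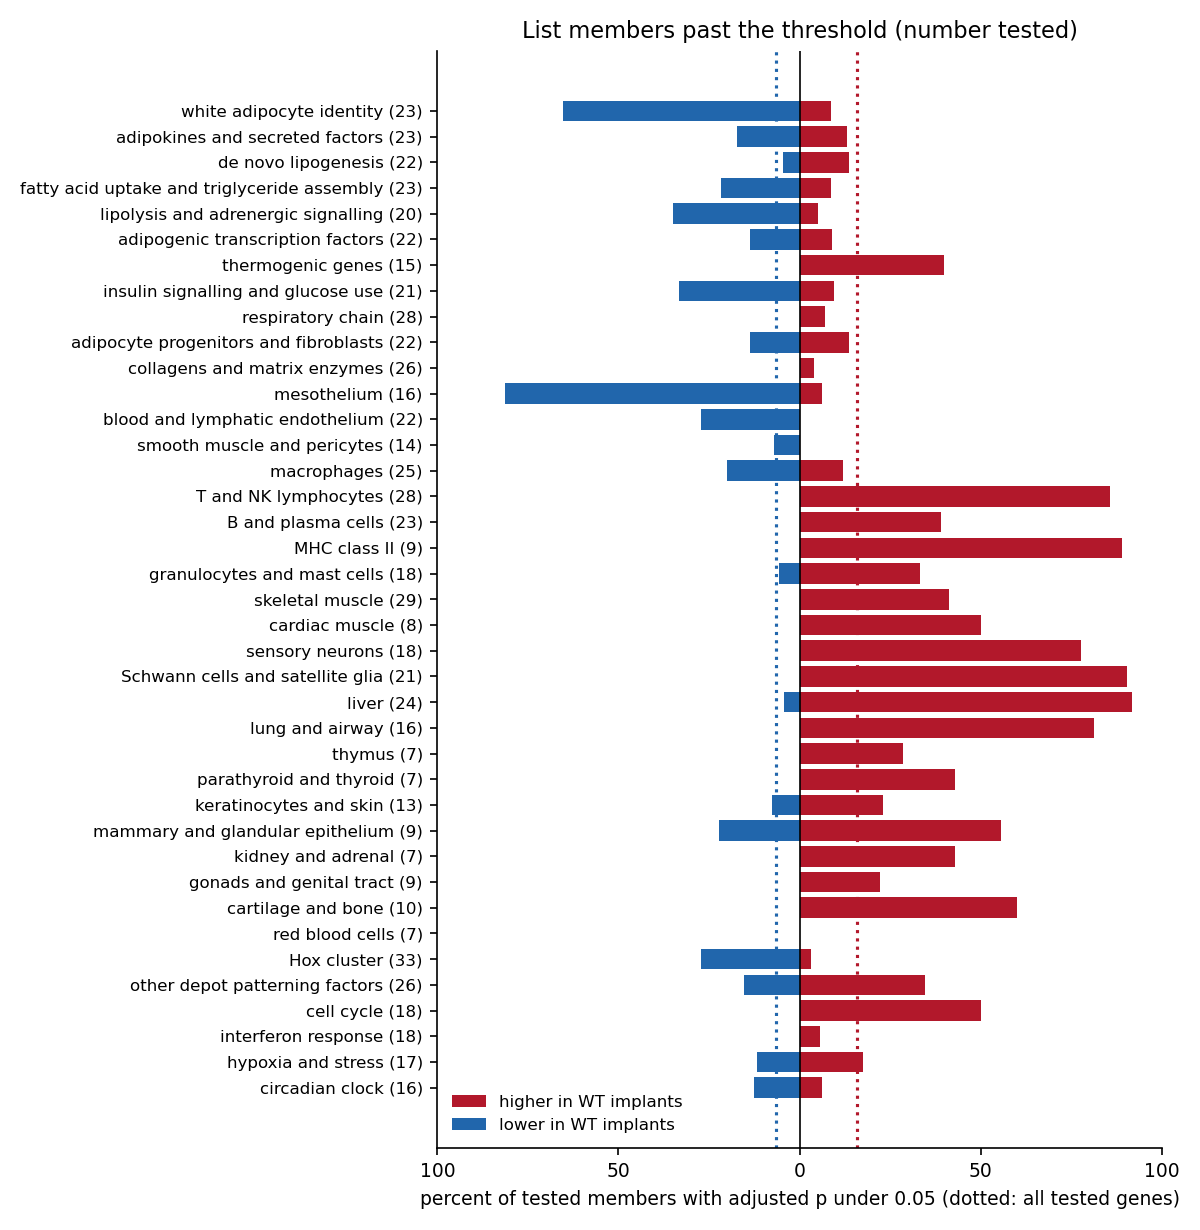
For each list with at least 7 tested genes, the percent of members higher (red, right) and lower (blue, left) in WT implants at an adjusted p under 0.05; dotted lines are the 15.9% and 6.5% of all tested genes. Mesothelium (13 of 16) and white adipocyte identity (15 of 23) extend furthest to the left, and liver, Schwann cell, MHC class II and T cell lists furthest to the right.

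Skeletal muscle genes were abundant in the implants and uneven between them. Their summed level was 22376 and 25417 CPM in MWM and 70698 and 5332 CPM in MWF and was 155 and 254 CPM in EVM, 1365 and 1409 CPM in EVFY and 988 CPM in EVFN2 in visceral fat. The sums did not overlap, yet those of the implants were far apart, with MWF1 highest and MWF2 lowest. Of 29 tested genes 12 rose and none fell, and 21 did not overlap between the sides (median 5.46). Among all tested genes 15.9% rose and 9.36% lay wholly above visceral fat. Casq1, the calcium store protein of the sarcoplasmic reticulum, was at 149 and 192 CPM in MWM and 471 and 40.9 CPM in MWF against 0.987 to 5.93 CPM (log2 difference 5.46, SE 1.26, adjusted p = 0.0175), and Pvalb, a calcium buffer of fast fibres, at 379 and 572 CPM in MWM and 1376 and 109 CPM in MWF against 0.112 and 3.84 CPM in EVM, 7.94 and 0.0548 CPM in EVFY and 13.5 CPM in EVFN2 (log2 difference 6.86, SE 1.87, adjusted p = 0.0329). Myh4, the myosin of the fastest fibres, had the list's largest difference (8.22) but did not pass (adjusted p = 0.0735), at 5082 and 6106 CPM in MWM and 19613 and 1284 CPM in MWF against 0 to 172 CPM.

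The fibre types did not follow one another. Myh7, the myosin of slow fibres, was at 0.0940 and 0.452 CPM in MWM and 67.0 and 4.80 CPM in MWF, within or below the visceral range of 0.0548 to 4.16 CPM except in MWF1 and MWF2. The same order of implants, MWF1 highest by at least 4-fold over MWF2 as the lowest, was held by 23 of the 29 muscle genes and by 234 of all tested genes, of which 145 rose. This order, and those for lymphocytes and liver below, were defined after seeing the data, and are a description. In the fit of 2 groups 21 muscle genes rose, and by edgeR 6. In the male groups and in the female groups 0 of the 29 passed by limma or edgeR, although 21 and 6 were higher at an unadjusted p under 0.05 by limma and 19 and 10 by edgeR.

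Heart genes were low and did not share that order. Of 10 cardiac genes 8 were tested, and 4 rose and none fell. Genes with almost no visceral reads, such as Myh6, could pass the filter only through implants or other libraries, so this share is partly set by the filter. Myh6, the atrial myosin, was at 5.92 and 2.20 CPM in MWM and 5.74 and 17.5 CPM in MWF against 1 read over the 5 visceral libraries, a ratio of 746 with a 95% counting interval of 133 to 29500.0 (log2 difference 3.68, SE 0.47, adjusted p = 0.00144). It was highest in MWF2, where Pvalb was lowest. The atrial light chain Myl7 was at 0.425 to 2.13 CPM, also highest in MWF2 (log2 difference 1.52, SE 0.39, adjusted p = 0.0251).

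Lymphocyte transcripts were high in the 2 libraries labelled MWF. Of 28 tested genes of T and NK cells 24 rose (15.9% of all tested genes did) and none fell (median 2.08). No member separated all 4 implants from visceral fat. Cd4, the coreceptor of helper T cells, was at 2.87 and 4.29 CPM in MWM and 80.4 and 98.1 CPM in MWF against 9.54 and 4.77 CPM in EVM, 2.56 and 4.44 CPM in EVFY and 1.84 CPM in EVFN2. The 2 MWM libraries lay in the visceral range (log2 difference 2.23, SE 0.35, adjusted p = 0.00386). Foxp3, the factor of regulatory T cells, was at 0.517 and 0.565 CPM in MWM and 14.1 and 12.3 CPM in MWF against 0.302 to 1.43 CPM (log2 difference 1.49, SE 0.18, adjusted p = 0.00115), and Lat, an adaptor of the T cell receptor, at 2.44 and 3.44 CPM in MWM and 64.2 and 80.0 CPM in MWF against 2.02 to 4.46 CPM (log2 difference 2.26, SE 0.28, adjusted p = 0.00126). In a limma fit that takes the 4 implants as 1 group, 0 genes of this list and 0 of the B cell list passed, with 9 and 6 higher at an unadjusted p under 0.05. Of these lists edgeR, with the groups kept apart, called 22 and 5. The first fit counts the gap between MWM and MWF as spread, and the others do not.

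B and plasma cell genes went the same way, with 9 of 23 higher and none lower (median 1.69). Cr2, the complement receptor of B cells and follicular dendritic cells, was at 0.799 and 1.36 CPM in MWM and 58.4 and 33.6 CPM in MWF against 0.614 and 0.233 CPM in EVM, 1.26 and 0.274 CPM in EVFY and 0.356 CPM in EVFN2 (log2 difference 3.11, SE 0.57, adjusted p = 0.00708), and the antibody chain Ighm at 535 and 699 CPM in MWM and 5870.5 and 1792 CPM in MWF against 288 to 854 CPM (log2 difference 1.69, SE 0.39, adjusted p = 0.0182). MWF1 was above MWF2 in both, whereas Cd4 was higher in MWF2. A level in both MWF libraries of at least 4 times that of either MWM library was met by 23 of 28 T and NK genes, 20 of 23 B cell genes and 378 of all tested genes. Of 9 MHC class II genes 8 rose, and 1 did so in the fit of 2 groups. In the female groups 9 of 9 rose and in the male groups 0, by limma and by edgeR, with 2 higher in the latter at an unadjusted p under 0.05, and 8 were lower in MWM than in MWF. The male minus female difference passed for 0 by limma and by edgeR, with 6 lower at an unadjusted p under 0.05 by either. H2-DMb1 was higher in every implant, at 65.5 to 82.6 CPM against 24.2 to 50.3 CPM (log2 difference 1.29, SE 0.22, adjusted p = 0.00513). Of 18 granulocyte and mast cell genes 6 rose and Kit fell. Ngp, a granule protein of immature neutrophils, was at 0.376 and 0.339 CPM in MWM and 5.21 and 3.04 CPM in MWF against 0 to 0.0594 CPM (log2 difference 1.85, SE 0.20, adjusted p = 0.000816).

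Most liver genes were low in visceral fat and present in every implant. The list's sums, which include Cyp2e1 and Trf, genes also expressed in visceral fat, were 3397 to 16616 CPM in the implants and 673 to 3486 CPM in visceral fat and overlapped. Of 24 tested 22 rose and 1 fell (median 7.49), and 21 of the rises did not overlap. Among all tested genes 15.9% rose and 9.36% lay wholly above visceral fat. Apoa1, the main protein of HDL, was at 1389 and 702 CPM in MWM and 272 and 606 CPM in MWF against 0.112 and 0.310 CPM in EVM, 0.402 and 0.219 CPM in EVFY and 1.13 CPM in EVFN2 (log2 difference 9.35, SE 0.86, adjusted p = 0.000534). Hpx, which binds heme in plasma, was at 905 and 485 CPM in MWM and 107 and 233 CPM in MWF against 0.151 to 1.73 CPM (log2 difference 8.51, SE 0.75, adjusted p = 0.000482), and the urea cycle gene Cps1 at 88.6 and 84.3 CPM in MWM and 34.3 and 47.6 CPM in MWF against 0 to 0.384 CPM (log2 difference 6.69, SE 0.43, adjusted p = 9.06e-05). Fgb, a chain of fibrinogen, had 0 reads in visceral fat and 581 and 361 CPM in MWM and 74.0 and 175 CPM in MWF. The 10 largest rises of all tested genes that met the naming rule included Apoa1, Apob, Gc, Ttr, Fga, Fgb, Pzp, Apoa2 and Hpx, genes of hepatocytes, with log2 differences of 8.51 to 9.35.

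The order MWM1 highest and MWF1 lowest, by at least 4-fold, was held by 18 of the 24 liver genes and by 272 of all tested genes, of which 236 rose. Cyp2e1, the one liver list gene that fell, is also a gene of adipocytes, at 186 to 501 CPM against 570.3 to 3249 CPM (log2 difference -2.25, SE 0.51, adjusted p = 0.0169). EVFN1, left out here, had Alb, the gene of serum albumin, at 2288 CPM, against 1614 to 6958 CPM in the implants, while visceral libraries had 6.98 to 61.6 CPM. The stretches before the start of 2 of these genes, those with a match among the liver genes searched, are shown from RefSeq on GRCm38.p6. In them GTTAAT, the half-site of the liver factor HNF1, or its reverse complement is in capitals. Fgb lies at chr3:83049864-83050013 on the minus strand and Alb at chr5:90460720-90460869 on the plus strand.
Fgb: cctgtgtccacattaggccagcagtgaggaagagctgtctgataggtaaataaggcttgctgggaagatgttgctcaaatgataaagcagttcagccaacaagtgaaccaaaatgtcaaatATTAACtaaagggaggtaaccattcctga
Alb: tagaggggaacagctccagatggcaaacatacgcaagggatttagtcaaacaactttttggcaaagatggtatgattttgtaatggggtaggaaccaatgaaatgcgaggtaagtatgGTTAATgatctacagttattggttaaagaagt
The match starts 29 bases before the start in Fgb and 32 in Alb, and Apoa1, the third liver gene searched, had none. GTTAAT on either strand occurs in 3.71% of the 32851 windows of 150 bases. A match is a description and no site.

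Lung genes were present in every implant. Of 16 tested 13 rose and none fell (median 3.74). Surfactant protein C (Sftpc, chromosome 14, 70520949 to 70524081, minus strand), made by alveolar type II cells, was at 118 and 41.0 CPM in MWM and 153 and 163 CPM in MWF against 0 reads in all 5 visceral libraries, at least 3902-fold higher against 3 reads over that side (adjusted p = 4.77e-06). Sftpb was at 52.1 and 25.7 CPM in MWM and 85.2 and 79.1 CPM in MWF against 2 reads over the visceral side, a ratio of 2968 (95% counting interval 821 to 24518). MWM2 had the lowest value in both, and neither had the order of muscle or of liver. Foxj1, the factor of ciliated cells, did not pass, with 84.3 CPM in EVM1 and no more than 0.297 CPM in the other visceral libraries.

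Genes of other organs were also read. Parathyroid hormone (Pth, chromosome 7, 113385580 to 113388570, minus strand) was at 19.8 and 17.7 CPM in MWM and 20.6 and 30.1 CPM in MWF, even across the implants, with 0 reads in visceral fat, at least 716-fold higher against 3 reads over that side (adjusted p = 2.80e-06). Chga, a granule protein of endocrine cells, was at 41.4 to 88.0 CPM against 0.0775 to 1.32 CPM (log2 difference 5.83, SE 0.43, adjusted p = 0.000170), and 3 of the 7 tested parathyroid and thyroid genes rose. Insulin genes were highest in MWM1: Ins2 was at 27.7 and 3.95 CPM in MWM and 3.13 and 6.81 CPM in MWF against 1 read over the visceral side (log2 difference 3.91, SE 0.60, adjusted p = 0.00317). Of 13 keratinocyte genes 3 rose and 1 fell, with Krt5 at 0.470 and 6.21 CPM in MWM and 7.23 and 36.1 CPM in MWF (log2 difference 3.56, SE 1.07, adjusted p = 0.0441). Of 10 cartilage and bone genes 6 rose, among them Spp1 (osteopontin, also made by macrophages), at 198 and 231 CPM in MWM and 44.8 and 85.6 CPM in MWF against 20.0 and 9.22 CPM in EVM, 0.201 and 0.822 CPM in EVFY and 0.238 CPM in EVFN2 (log2 difference 5.75, SE 0.33, adjusted p = 7.15e-05), and Comp, a cartilage matrix protein, at 24.7 to 56.1 CPM against 1.66 to 5.92 CPM (log2 difference 3.62, SE 0.42, adjusted p = 0.00101). Of 7 red blood cell genes 0 passed by limma or by edgeR, and 1 was higher at an unadjusted p under 0.05 by limma. The smallest adjusted p was that of Alas2 (0.106). Of the 171 genes of the 11 organ lists 113 were tested, with 62 higher (54.9%) and 4 lower (3.54%). Of all tested genes 15.9% were higher and 6.5% lower. Genes without reads in visceral fat could pass the filter only through implants or other libraries. The share of rises among the tested organ genes is therefore partly set by the filter.

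Nerve genes rose. Of 21 genes of Schwann cells and satellite glia 19 rose and none fell (median 1.51). Of 23 sensory neuron genes 18 were tested, and 14 rose (median 1.81). Among all tested genes 15.9% rose. Genes with almost no visceral reads, such as Nefl and Scn10a, could pass the filter only through implants or other libraries. The share of rises among the tested nerve genes is therefore partly set by the filter. The sums of the sensory neuron list overlapped, at 329.6 to 468 CPM in the implants and 345 to 447 CPM in visceral fat. The neurofilament gene Nefl was at 3.95 and 3.50 CPM in MWM and 4.62 and 4.68 CPM in MWF against 2 reads over the 5 visceral libraries (log2 difference 3.17, SE 0.16, adjusted p = 4.30e-05), and Scn10a at 3.10 and 3.44 CPM in MWM and 4.41 and 4.32 CPM in MWF against 1 read (log2 difference 3.07, SE 0.21, adjusted p = 0.000104). Over the implants 20 of the 33 called nerve genes varied by no more than 2-fold, a share under the 68.8% of all tested genes. Gfap, the glial filament, was at 97.4 and 33.5 CPM in MWM and 70.7 and 484 CPM in MWF against 0.194 to 1.66 CPM (log2 difference 6.43, SE 0.65, adjusted p = 0.000650).

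Outside the lists, the genes that differed most with a range of no more than 2-fold on both sides were read as a separate group. Among those that rose was Clu, a secreted chaperone, at 747 and 676 CPM in MWM and 544 and 655 CPM in MWF against 184 and 167 CPM in EVM, 165 and 218 CPM in EVFY and 175 CPM in EVFN2 (log2 difference 1.85, SE 0.20, adjusted p = 0.000826). Zfhx4, a homeodomain factor, was at 25.2 to 31.6 CPM against 6.75 to 10.9 CPM (log2 difference 1.48, SE 0.14, adjusted p = 0.000640), and Sms, which makes spermine, at 25.2 to 36.0 CPM against 8.72 to 11.6 CPM (log2 difference 1.58, SE 0.28, adjusted p = 0.00606). Among those that fell were Ano1, a chloride channel, at 16.8 and 14.7 CPM in MWM and 13.7 and 13.3 CPM in MWF against 67.4 and 43.3 CPM in EVM, 74.1 and 68.4 CPM in EVFY and 57.5 CPM in EVFN2 (log2 difference -2.02, SE 0.14, adjusted p = 0.000104), and Chst1, a sulfotransferase, at 75.2 to 89.1 CPM against 208 to 339 CPM (log2 difference -1.74, SE 0.19, adjusted p = 0.000865). Mst1r, the receptor for macrophage-stimulating protein, was at 15.7 to 21.0 CPM against 48.6 to 70.1 CPM (log2 difference -1.62, SE 0.23, adjusted p = 0.00239), and Zfpm2, a partner of GATA factors, at 4.09 to 5.84 CPM against 15.7 to 28.5 CPM (log2 difference -1.77, SE 0.17, adjusted p = 0.000627). These 7 were chosen among genes without overlap between the sides, so their lack of overlap is no result. Under the scaling to adipocyte genes the 4 that fell stayed below 0, with log2 differences of -1.06 for Chst1 and -1.35 for Ano1.

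The lists were also read with EVFN1 and MKM1 put back as labelled. Liver genes then had 20 rises of 24, lung genes 13 of 16, skeletal muscle genes 14 of 29, T and NK genes 22 of 28 and Schwann cell genes 16 of 21. Falls were fewer, with 4 of 16 in mesothelium, 1 of 33 in the Hox genes and 1 of 22 in endothelium. Of the cell cycle genes described next 0 of 18 passed in that fit by limma, with 3 higher at an unadjusted p under 0.05, and edgeR was run without these 2 libraries only.

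Lists of cell states came last. Of 18 cell cycle genes 9 rose (15.9% of all tested genes did) and none fell (median 0.99). Top2a, a topoisomerase of dividing cells, was at 17.1 and 9.49 CPM in MWM and 36.5 and 171 CPM in MWF against 22.8 and 11.9 CPM in EVM, 10.3 and 13.0 CPM in EVFY and 4.99 CPM in EVFN2 (log2 difference 1.64, SE 0.43, adjusted p = 0.0273), so MWM lay in the visceral range and MWF2 stood highest. Within the male groups 0 of the 18 passed by limma or edgeR, also at an unadjusted p under 0.05, and within the female groups 16 rose. Of 17 hypoxia and stress genes 3 rose and 2 fell, with Ldha at 788 to 1077 CPM against 405 to 674 CPM (log2 difference 0.97, SE 0.21, adjusted p = 0.0130) and Bnip3 lower (log2 difference -0.83, SE 0.18, adjusted p = 0.0128). Of 16 clock genes Bhlhe40 rose (log2 difference 1.34, SE 0.19, adjusted p = 0.00234) and Per1 and Per2 fell. The share that rose is near the 15.9% of all tested genes for stress and below it for the clock. The medians of these lists were -0.0092 and -0.19, so their counts of rises are no result about the lists.

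The comparison was next made within codes that carry M or F, which the design text spells out as male and female for the implants. For EVM, EVFY and EVFN the letters are not spelled out, and they are read here in the same way. MWM, EVM and MWF had the knee surgery, EVFN is described as without it, and for EVFY it is not spelled out. Surgery therefore cannot be told apart from tissue in the female groups, nor from sex in the male minus female difference. MWM against EVM, 2 libraries against 2, called 681 of 17871 genes (3.81%), 500 higher (2.8%) and 181 lower (1.01%). With all libraries as labelled the number was 40, by edgeR 385, without MWM1 79 and without MWM2 350. EVFN1 and MKM1 belong to neither MWM nor EVM, so putting them back alters the spread shared by all groups and not these differences. Without EVM2 the larger part was lower, 298 against 247 higher. MWF against EVFY and EVFN2, 2 against 3, called 4348 (24.3%), 3407 higher (19.1%) and 941 lower (5.27%), with 2382 and 1907 under the median of ratios and 2513 and 1426 by edgeR. That scaling shifted the median of all genes by -0.19 in the female groups. Without MWF1 there were 2228 calls and without MWF2 2124. The difference between both comparisons passed for 842 genes (4.71%), 50 higher in the male one (0.28%) and 792 lower (4.43%). The 5.94% that were higher became 17.5% under the median of ratios, and 48 genes passed without MWM2.

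White adipocyte genes called in the female groups numbered 15 lower of 23, against 0 in the male groups, where the median was -0.34 and that of the female groups -1.08. In the male groups 2 were higher and 4 lower at an unadjusted p under 0.05, and edgeR also called 0. The difference passed for 0 of the 23 by limma and by edgeR, with 5 at an unadjusted p under 0.05 by limma. Adipoq, for example, differed by -0.01 in the male and -1.34 in the female groups (adjusted p of the difference 0.0963). Liver genes rose in both, 22 of 24 in the male and 21 in the female groups, mesothelial genes fell in both, 10 and 12 of 16, and Schwann cell genes rose in both, 11 and 17 of 21. With EVFN1 and MKM1 put back these counts were 1 and 1 for liver, 0 and 1 for mesothelium and 4 and 13 for Schwann cells by limma, with 22 and 15 liver genes higher and 8 and 4 mesothelial genes lower at an unadjusted p under 0.05. By edgeR without those libraries they were 17 and 21, 7 and 9, and 11 and 15. Putting EVFN1 and MKM1 back leaves the male differences unchanged and alters the shared spread. T and NK genes rose in 24 of 28 cases in the female groups and in 0 in the male, with medians of 4.13 and -0.04, and here the difference itself passed for 23 of 28. By edgeR that number was 10, and of the male groups 0 passed in the same list, with 3 lower at an unadjusted p under 0.05 by either tool.

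**Figure D5:**
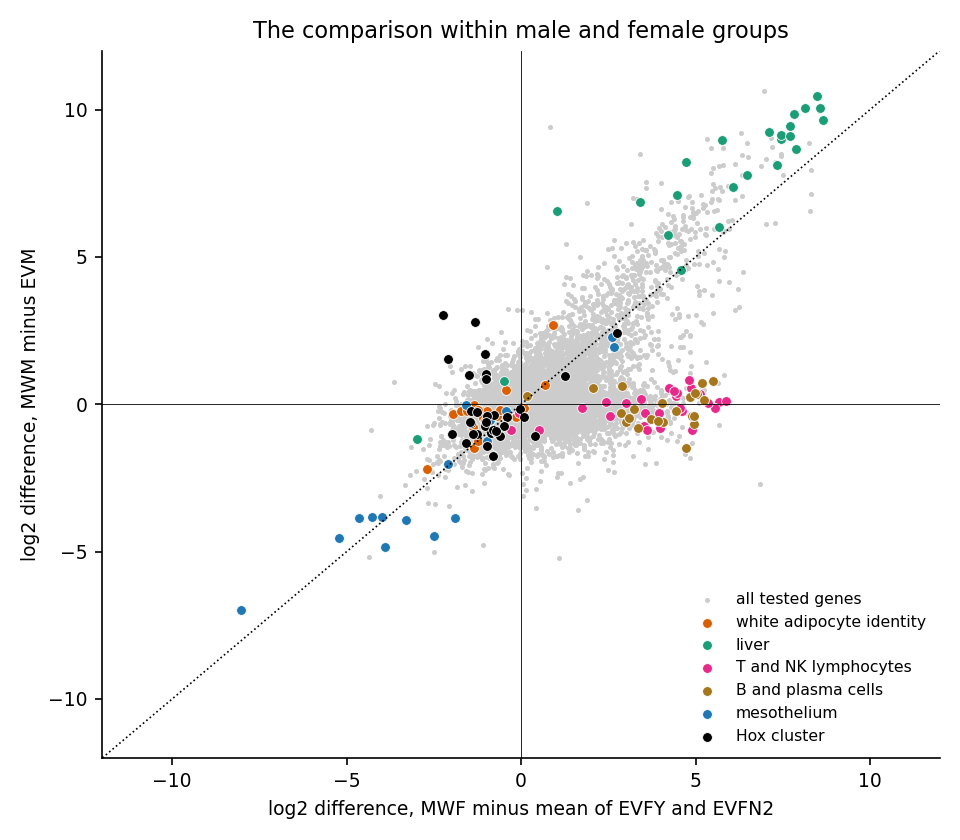
Log2 differences on the log2(CPM + 0.5) scale between implants and visceral fat within the female groups (x axis) and the male groups (y axis), one point per gene; the dotted line marks equal differences. Liver genes lie high on both axes and mesothelial genes low on both, T, NK and B cell genes lie right of the dotted line near 0 on the y axis, and 4 Hox genes lie high on the left.

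Genes with the largest such differences were of 2 kinds. Tcf7, a factor of naive T cells, was at 2.96 and 4.69 CPM in MWM and 242 and 417 CPM in MWF against 16.0 and 2.44 CPM in EVM, 8.14 and 4.77 CPM in EVFY and 5.23 CPM in EVFN2, so MWF was high (log2 difference between the comparisons -6.39, SE 1.39, adjusted p = 0.0389 by limma). The antibody segments Igkv3-2, Ighv1-18 and Ighg1 went the same way, with members of their families possibly sharing reads. In the other kind the visceral groups differed. Hoxc10 was at 7.94 and 9.20 CPM in MWM and 3.77 and 5.53 CPM in MWF against 1.45 and 0.116 CPM in EVM, 24.7 and 24.0 CPM in EVFY and 23.0 CPM in EVFN2, so EVM lay below the implants and EVFY and EVFN2 above them (5.29, SE 0.61, adjusted p = 0.00835 by limma). Hoxa10 was even in the implants at 9.87 to 12.0 CPM against 3.07 and 0.194 CPM in EVM, 24.3 and 44.8 CPM in EVFY and 25.2 CPM in EVFN2. Of 33 Hox genes 4 passed this test, Hoxa9, Hoxa10, Hoxa13 and Hoxc10, and none of these passed between the tissues.

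The implants themselves differed by sex label or by library. MWM against MWF called 2460 genes (13.8%), 262 higher in MWM (1.47%) and 2198 lower (12.3%). The 10.7% that were higher became 39.8% under the median of ratios, which shifted the median of all genes by 0.22, and 28.6% by edgeR. Without MWM2 520 genes passed and without MWM1 723. Higher in MWM were Apoa4, an apolipoprotein of liver and gut, at 287 and 114 CPM in MWM and 3.67 and 6.26 CPM in MWF, and the integrin Itgad at 152 and 278 CPM in MWM and 4.46 and 3.95 CPM in MWF. C7, a terminal complement protein, was at 80.7 and 161 CPM in MWM and 6.32 and 3.71 CPM in MWF in the implants and at 403 and 308 CPM in EVM, against 4.10 to 13.0 CPM in EVFY and EVFN2, so it was higher in both male groups. Lower in MWM were 24 of 28 T and NK genes and 22 of 23 B cell genes. Of the 23 white adipocyte genes 11 were higher in MWM at an unadjusted p under 0.05 by limma and 16 by edgeR, none was lower, and the list's sums did not overlap. After adjustment 1 passed by either tool, by limma Gpd1, which makes glycerol phosphate, at 890.0 and 1004 CPM in MWM and 262 and 489 CPM in MWF.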

How the data were processed

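RNA of endogenous fat and of fibroblast implants was sequenced, 16 libraries in 1 table. Per the labels' protocols, RNase H served to deplete ribosomal RNA and random hexamers primed the cDNA, while the molecule is labelled polyA RNA. Per the submitters' processing notes, cutadapt 2.7, FastQC 0.11.4, STAR 2.5.4, featureCounts of Subread 1.6.3 and the build mm10 were used. Annotation, strand setting and filters: not given in the sources used here. Hence overlapping and antisense genes, and families of near-identical genes are uncertain.

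The values deposited by the authors are CPM per gene symbol, summing to 1000000 in each library. All values (100%) were whole multiples, within 0.001 reads, of the value of 1 read (0.0388 to 0.0608 CPM), which gave whole reads per gene and the total of each library. The interval of a ratio against 1 to 3 reads and the limit of 3 reads over the visceral side cover counting error only. The group labelled ESF is not analysed here. Of the symbols, 54106 (99.0%) were in the GENCODE M21 annotation, from which positions were taken.

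Groups followed the labels. Log2(CPM + 0.5) was fitted with limma 3.58.1 (R 4.3.3) on group means of 14 libraries, with trended and robust variance, for genes that reached 1 CPM in 2 or more libraries, and p-values were adjusted by Benjamini-Hochberg over all tested genes at a threshold of 0.05. SE and log2 differences are on that scale, which understates changes of low genes. EVFN1 and MKM1 were left out, so EVFN and MKM hold 1 library each, assumed to vary like the others. Contrasts weigh groups equally. Alternatives were pseudocounts of 0.1 and 2, no filter, median-of-ratios scaling, the 9 libraries alone, 2 groups, all libraries, a replicate block, each library left out, and edgeR 4.0.16 (quasi-likelihood, TMM) on the recovered reads, which called 3884 genes between the tissues. Scaling to white adipocyte genes was added after seeing the data. The fit was run on simulated reads to check the sign and size of differences. Those reads had the same spread for every gene and no other group differences, so they do not test the calls made here.

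Members, lists and tests were chosen with earlier results of these data known. Named genes were Lep, Lepr and Cfd; up to 4 members of each list with the smallest adjusted p, or 2 where none passed; the 10 largest rises and falls with no overlap and at least 5 CPM; 10 more each way with a range of no more than 2-fold on both sides; and 5 each way in the other comparisons. Adipoq, Plin1, Cidea, Ucp1, Myh4, Myh7, Alb, Foxj1, Cyp2e1, Gpd1, Tcf21, Ddx3y and the genes named only as passing, as in a muscle or liver order, or as left after the scaling to adipocyte genes were chosen after their values were seen. Results of some genes are not reported here. Libraries of MWM, MWF, EVM and EVFY differed within the group by more than sampling noise (chi-square per degree of freedom 22.3 to 103). The value of 214 for EVFN sets EVFN2 against EVFN1, which was left out.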

Additional observations from a re-analysis of the deposited data

Results flagged for a closer look

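Single libraries stood far from the others of their side in the 19 cases reported here, where the gap to the nearest library was more than Dixon's 95% limit for 4 or 5 libraries. Chance alone gives about 1 such case in 20 groups tested, and 247 groups of named genes with a mean of at least 5 CPM were tested, so about 12.35 of such cases would come by chance. In visceral fat, EVM1 was high for Lcn2 (133 CPM), Lrp2 (139 CPM), Elovl5 (104 CPM) and the B cell gene Cd22 (10.5 CPM). EVM2 was high for Nfia (162 CPM). EVFY2 was the library apart for Rspo1 (89.8 CPM) and Arhgap28 (24.6 CPM).

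Among the implants, MWF2 was the library apart for Gfap (484 CPM), the thymocyte gene Arpp21 (38.1 CPM), the dividing-cell genes Top2a (171 CPM) and Rrm2 (61.8 CPM), Ldha (788 CPM), Ighg1 (196 CPM) and Xist (766 CPM). MWM1 was high for Ins2 (27.7 CPM) and for Alas2 of the red cell list (22.7 CPM). MWM2 stood apart for the endothelial gene Cldn5 (60.1 CPM) and for Rapgef4 (5.65 CPM), and MWF1 was high for the antibody segment Igkv3-2 (873 CPM).

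Between the male and the female comparison the difference passed an adjusted p of 0.05 by limma for 9 genes given here, named by size. It was negative for Igkv3-2 (log2 -9.57), Ighv1-18 (-6.66), Tcf7 (-6.39) and Ighg1 (-6.38). It was positive for Xist (8.59), which was near 0 in EVM and high in both libraries labelled MWM, and for Hoxc10 (5.29), Acsm3 (4.41), Kng2 (4.16) and Hoxa10 (4.14).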

How the results depend on the processing

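The count of genes called between the tissues stayed within 1.5 times under other pseudocounts, no filter, the median of ratios, the 9 libraries alone and edgeR. It fell to 1735 with all libraries as labelled and 1878 in the fit of 2 groups, and was 10746 after scaling to white adipocyte genes. Leaving out 1 library gave 1708 (without MWM1) to 3942. In the male groups the count was 40 with all libraries, which alter the shared spread there and not the differences. It was 385 by edgeR, and leaving out 1 library gave 79 to 680. Without EVM2, 247 were higher and 298 lower. In the female groups it was 1973 with all libraries and 12494 under the adipocyte scaling, and 2124 to 4615 without 1 library. The difference between them gave 434 calls from the 9 libraries alone, 389 with all libraries, 358 by edgeR and 48 (without MWM2) to 1408 without 1 library. MWM against MWF gave 1603 from the 9 libraries alone, 1584 by edgeR, 5591 under the adipocyte scaling and 520 to 2477 without 1 library. Without MWM1 50 named genes lost their call, with all libraries 96, and by edgeR 14. The cause was not tested. In all of the 19 planned settings, the main one included and the scaling to white adipocyte genes left out, 465 genes were higher and 114 lower between the tissues.

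The adipocyte scaling raises all genes by a median of 0.62, which takes small negative values above 0, as in 4 named genes that did not pass: Ebf1 (0.069), Flt1 (0.072), Notch3 (0.027) and Csf1r (0.0087). Replicate numbers of the groups were not shown to pair libraries: deviations of same-numbered libraries correlated between groups at -0.44 to 0.34. With the replicate number as a block, 3736 genes passed between the tissues, 585 in the male groups, 4007 in the female groups, 647 in the difference and 2082 between MWM and MWF, and 5 named genes lost their call. Depth limits genes with few reads, where 1 read is worth up to 0.0608 CPM.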
